A study of Homo sapiens with 6 samples.

Results

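The genes described here code for the protein factors that drive translation, named EIF for initiation and EEF for elongation, together with a set of nucleolar proteins that make ribosomes. They were chosen by name, as probe sets annotated to 1 symbol only that starts with EIF or EEF, without the kinase genes EIF2AK3 and EIF2AK4, plus 20 named nucleolar genes. This gave 186 of 54675 probe sets and 78 of 19775 genes, of which 61 were EIF or EEF symbols and 17 were nucleolar genes. NOP56, DKC1 and BOP1, also named, share their probe sets with other genes and are not analysed here, nor are EIF4A1, EEF1B2 and EEF1G. The 61 included 4 noncoding RNAs that carry the symbol of a neighbouring factor gene.

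The arrays compared mesodermal progenitors with the undifferentiated H9 cells from which they were made. H9 is an established human embryonic stem cell (hESC) line. The progenitors had been induced in Stemline II with FGF2, VEGF, BMP4 and activin A, and were sorted by flow cytometry on day 3.5 for CD56 and for the absence of CD326, with 3 arrays in each group. Both groups are of 1 cell line, and neither unsorted cells of day 3.5 nor sorted hESC are among the arrays. The labels leave it unsaid whether the 3 arrays of each group stand for separate cultures, and the p-values therefore measure the spread between these arrays, which may be technical. In these bulk samples, fewer cells of a type and less RNA per cell cannot be told apart.

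Ribosomes are assembled in the nucleolus. RNA polymerase I transcribes the ribosomal RNA precursor, small nucleolar ribonucleoproteins modify it, the small-subunit processome cuts and folds it, and separate factors build the large subunit. Finished ribosomes are brought to the start codon of a messenger RNA by initiation factors and moved along it by elongation factors. Pluripotent stem cells are known for high ribosome production, and its regulation during their differentiation has been studied for that reason.

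A level is log2 of the deposited intensity plus 16, quantile-normalized between arrays. A change is the progenitor mean minus the hESC mean on that scale, which understates changes of dim genes. Genes were tested with limma, two-sided, and a gene is said to have risen or fallen where the p adjusted over all 19775 genes was under 0.05. The markers of both labelled states were checked. All 10 mesoderm markers measured rose (median change 5.3, limma, 0 lower also at an unadjusted p under 0.05), and all 8 pluripotency markers fell (median change -3.85, 0 higher also at an unadjusted p under 0.05). Of 10 endothelial and blood markers, 6 rose and none fell after adjustment in limma (1 was lower at an unadjusted p under 0.05). Their median level was 8.2 on progenitor array 1, against 6.35 and 6.59 on the other progenitor arrays, and between 4.84 and 5.02 in hESC. The leukocyte gene PTPRC and the endothelial gene PECAM1 in that list did not pass, at 0.14 and -0.01. Of 6 endoderm markers 4 rose and 1 fell, of 7 neuroectoderm markers 2 rose and 1 fell, and of 8 fibroblast markers 4 rose and 2 fell. The part that such cells have in the changes below was not tested. The 3' over 5' ratio of the ACTB control probe sets, a measure of RNA integrity, was 1.44, 1.38 and 1.34 in the progenitors, against 2.13, 1.57 and 1.46 in hESC, with the smallest p that an exact permutation test of 3 against 3 arrays allows (two-sided p = 0.1). Whether it moves the values of the members was not tested.

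The nucleolar genes and the translation factors differed in what they did. Of the 17 ribosome biogenesis genes 14 fell and none rose on the quantile-normalized scale, with none higher at an unadjusted p under 0.05 in limma either, and their median change was -0.78. The 47 coding genes with EIF symbols were counted as initiation genes by name. They include kinases of eIF2, inhibitors of EIF4E, the exon junction helicase EIF4A3 and the EIF5A paralogs, which are not all initiation factors. Of these 47 genes 9 rose and 9 fell, with a median change of 0.01. Of 10 genes for elongation factors and the enzymes that modify them, 5 rose and none fell, also at an unadjusted p under 0.05 in limma, with a median change of 0.47. Over all genes tested, 26.7% were called higher and 21.2% lower, and the median change was 0.04. For all 78 members together 16 were higher, 23 lower and 39 not past the threshold, where 47.9% of all genes were called either way. At least 2-fold, 5 biogenesis genes were lower, against 7.22% of all genes, and of all members 7 were lower and 3 higher, where 9.39% of all genes were higher by as much. The progenitor arrays lay all below the hESC arrays in 16 of the 17 biogenesis genes, where 25.3% of all genes did so. They lay all above them in 17 initiation genes and all below in 15, where 32.0% of all genes lay above.

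The size of these decreases and the number of calls depended on how the arrays were scaled. The median of the biogenesis genes was -0.81 without normalization and -0.95 with each array centred on its gene median. When each array was scaled on its spiked-in hybridization controls, where all genes had a median change of 0.32, 6 biogenesis genes were lower and 3 higher, with a median of -0.28. Of the 14 that fell, UTP15 and NOL8 turned above 0 there, as did NPM1, NCL and FBL among the others. On that scale 45.9% of all genes were called higher and 10.1% lower. There 40 of the 57 initiation and elongation genes were higher and 2 lower, with a median of 0.53. Of all genes called, 81.9% were higher on that scale, 37.3% with each array centred on its gene median and 55.8% on the quantile-normalized scale.

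**Figure D1:**
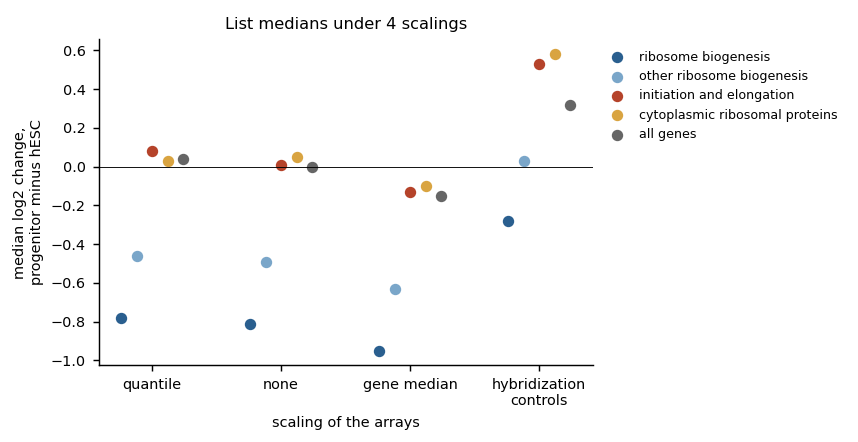
Median log2 change, progenitor minus hESC, of 4 gene lists and of all genes tested (vertical axis) under 4 ways of scaling the arrays (horizontal axis), 1 point per list. The ribosome biogenesis genes have medians of -0.78, -0.81, -0.95 and -0.28, and scaling on hybridization controls puts every list higher than the other scalings do.

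Both catalytic subunits of RNA polymerase I on the list fell. POLR1B, the second-largest subunit, was at 8.81, 8.58 and 8.59 in the progenitors, against 10.1, 10.02 and 10.21 in hESC. The groups were more than 1 log2 unit apart, and the change was -1.46 (SE 0.1, n = 3 per group, limma adjusted p = 2.31e-05). Each of its 4 probe sets fell when probe sets were tested singly, by between -0.93 and -1.85. POLR1A, the largest subunit, was at 7.52, 7.55 and 7.48 in the progenitors and at 8.08, 8.17 and 8.27 in hESC. The groups did not overlap, and POLR1A fell by 0.66 (SE 0.09, limma adjusted p = 0.000549), although scaling on hybridization controls left it at -0.13 without a call.

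All 7 members grouped under the small-subunit processome and small-subunit maturation fell, where 21.2% of all genes did. They were led by RRP12, which takes part in the maturation and export of the small subunit. RRP12 was at 8.13, 8.09 and 8.11 in the progenitors, against 9.88, 9.87 and 9.81 in hESC. The spread within either group was under 0.1, and the change was -1.74 (SE 0.08, limma adjusted p = 2.41e-06), a level 0.298 times that of hESC. This rests on 1 of 5 probe sets: the other 4 had mean levels between 4.14 and 6.34, and of these 1 rose, by 0.36. NOL6, a core processome protein, was at 8.54, 8.5 and 8.48 in the progenitors and at 9.64, 9.57 and 9.62 in hESC, a change of -1.1 (SE 0.08). UTP20, which is needed for cleavage of the precursor, was at 8.58, 8.52 and 8.58 in the progenitors, against 9.64, 9.56 and 9.76 in hESC, and also changed by -1.1 (SE 0.09). The progenitor arrays of both genes sat about 1 log2 unit below every hESC array. NOL11, a processome protein tied to transcription of the precursor, was at 9.98, 9.95 and 9.99 in the progenitors, against 10.79, 10.65 and 10.92 in hESC, a change of -0.81 (SE 0.09). NOP14, another processome protein, was at 8.56, 8.48 and 8.44 in the progenitors, against 9.34, 9.32 and 9.25 in hESC, also a change of -0.81 (SE 0.08). RRP9, of the U3 small nucleolar ribonucleoprotein, changed by -0.78, and for these genes too every progenitor array lay below every hESC array. UTP15, of the same subcomplex as NOL11, had the smallest change, -0.46 (limma adjusted p = 0.0146), and its sign turned to 0.07 with scaling on hybridization controls. The call of UTP15 was lost when progenitor array 2 (limma adjusted p = 0.0565) or hESC array 1 (0.0513) was left out. With probe sets marked as able to match several transcripts left out, NOL6 was at -0.29 and RRP12 at -0.13, neither past the threshold. Dim probe sets stood for both genes there, at mean progenitor levels of 4.41 for NOL6 and 4.87 for RRP12. Tested singly, 2 of the 4 NOL6 probe sets fell and 2 did not pass. The second that fell changed by -0.92, at mean levels of 6.91 in the progenitors and 7.83 in hESC.

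**Figure D2:**
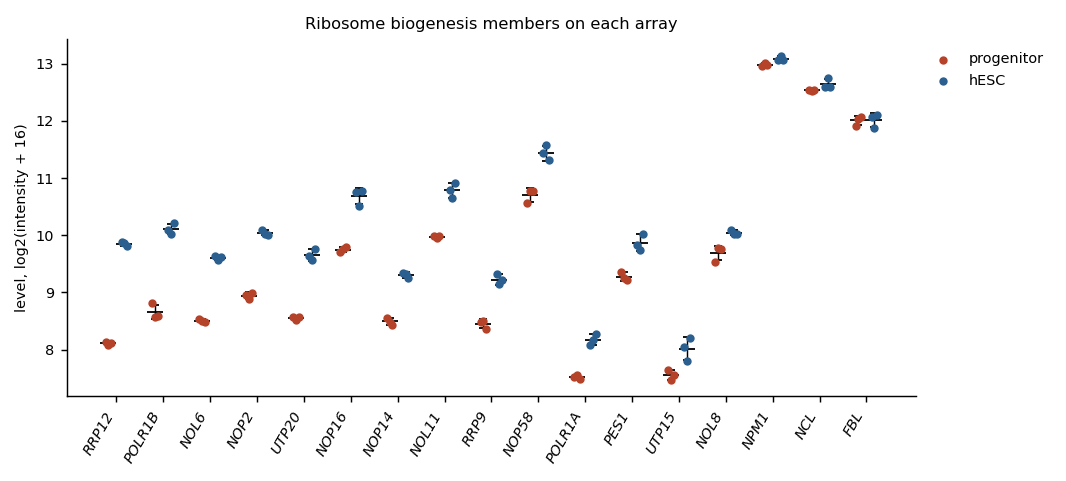
Level on each array, log2(intensity + 16), of the 17 ribosome biogenesis genes, ordered by change. Points are arrays (3 progenitor, left, and 3 hESC, right, in each pair), black bars are the mean and SD. The progenitor arrays lie below the hESC arrays from RRP12 (-1.74) to NCL (-0.11) and overlap them in FBL, on the quantile-normalized scale; with scaling on hybridization controls UTP15, NOL8, NPM1, NCL and FBL had changes above 0.

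The proteins that modify and organise nucleolar RNA divided into those that fell and a bright trio, FBL, NPM1 and NCL, that did not pass. NOP2, a methyltransferase of the large ribosomal RNA, was at 8.96, 8.88 and 8.99 in the progenitors and at 10.09, 10.03 and 10.01 in hESC. All hESC arrays were at least 1 log2 unit higher, and the change was -1.1 (SE 0.08, limma adjusted p = 2.87e-05). NOP58, a core protein of the box C/D particles, was at 10.57, 10.77 and 10.77 in the progenitors, against 11.43, 11.57 and 11.31 in hESC, and changed by -0.73 (SE 0.1). Fibrillarin (FBL), the methyltransferase of the same particles, was at 11.91, 12.04 and 12.07 in the progenitors and at 12.06, 11.88 and 12.1 in hESC. Its groups overlapped, at a difference of -0.01 (SE 0.1, limma adjusted p = 0.958). Nucleophosmin (NPM1), at 12.98 ± 0.03 in the progenitors and 13.09 ± 0.04 in hESC (SD, n = 3 each), differed by -0.11. Nucleolin (NCL), at 12.53 ± 0.01 in the progenitors and 12.65 ± 0.09 in hESC (SD, n = 3 each), also differed by -0.11. NPM1 and NCL had all progenitor arrays below the hESC arrays without passing the test, and with scaling on hybridization controls they differed by 0.45 and 0.42 the other way. With centring on the gene median NPM1 (-0.23) and NCL (-0.26) were called lower, as they were when probe sets were averaged (-0.24 and -0.32). NCL was also called lower with multi-transcript probe sets left out (-0.52). There a dim probe set stood for NCL, at mean levels of 6.29 in the progenitors and 6.82 in hESC. It did not pass when tested singly (limma adjusted p = 0.051), and it also enters the averaged value of NCL. With a variance trend NPM1 was called lower at limma adjusted p = 0.0295 (-0.11). Tested singly, a further NPM1 probe set fell by 0.31. The highest deposited intensity was 12339.47, so the levels of these transcripts lay near the top of the measured range, and whether that narrows their differences was not tested.

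The 3 members grouped under large-subunit assembly, NOP16, PES1 and NOL8, all fell on the quantile-normalized scale, where 21.2% of all genes did. NOP16 was at 9.7, 9.76 and 9.79 in the progenitors, against 10.75, 10.52 and 10.77 in hESC, and changed by -0.93 (SE 0.1, limma adjusted p = 0.000166). A second probe set of NOP16 gave the same change, -0.93, and a dim one rose by 1.1, at mean levels of 5.87 in the progenitors and 4.77 in hESC. PES1, a member of the PeBoW complex that matures the large-subunit RNA, was at 9.36, 9.26 and 9.21 in the progenitors and at 9.83, 9.74 and 10.03 in hESC, and changed by -0.59 (SE 0.1). NOL8, a nucleolar RNA-binding protein, was at 9.54, 9.77 and 9.76 in the progenitors, against 10.09, 10.03 and 10.02 in hESC. NOL8 changed by -0.36 and turned to 0.11 with scaling on hybridization controls, and it did not pass without hESC array 1 (limma adjusted p = 0.0542). On the mean of all probe sets of a gene, NOP16 (-0.15), PES1 (-0.19) and RRP12 (-0.21) did not pass. Of the 37 probe sets of the 17 biogenesis genes tested singly, 22 fell, 2 rose and 13 did not pass. The share of all probe sets called in that fit was not counted, so these counts have no background beside them.

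The promoters of the biogenesis genes are shown because the palindrome CACGTG, the E-box that MYC family proteins and other factors can bind, recurred in them at a similar place. The window holds 250 bases before and 50 from the annotated start, from RefSeq (GRCh38.p14), and 15 of the 17 genes were matched. Of these 8 held CACGTG (53.3%), against 13 of 44 promoters of initiation and elongation genes (29.5%), 33 of 113 of other ribosome biogenesis genes (29.2%), 3 of 64 of ribosomal protein genes (4.69%) and 1369 of 15384 of all genes tested (8.9%). All 8 began their E-box between positions -10 and 36, counted from 1 at the start site, a range chosen after the positions were seen. Of the 13 initiation and elongation promoters with an E-box none had it there, and of the 1369 promoters of genes tested 14.8% had. The 8 included FBL, at position 7, which did not pass the test, and the ETS core CGGAAG, searched on both strands as CGGAAG or CTTCCG, was in 7 of the 15 (46.7%) and in 25.8% of the promoters of genes tested. The ETS core was in 40.9% of initiation and elongation promoters, 62.8% of those of other ribosome biogenesis genes and 62.5% of those of ribosomal protein genes. The E-box is in capitals in the promoters of NOL6 (chr9:33473875-33474174, minus strand), UTP20 (chr12:101279855-101280154, plus strand) and NOP2 (chr12:6568242-6568541, minus strand). It begins there at 14, -10 and 36. The promoter of EIF5A2 (chr3:170908588-170908887, minus strand), a gene that rose, has it at -187 and -162, also in capitals.
NOL6: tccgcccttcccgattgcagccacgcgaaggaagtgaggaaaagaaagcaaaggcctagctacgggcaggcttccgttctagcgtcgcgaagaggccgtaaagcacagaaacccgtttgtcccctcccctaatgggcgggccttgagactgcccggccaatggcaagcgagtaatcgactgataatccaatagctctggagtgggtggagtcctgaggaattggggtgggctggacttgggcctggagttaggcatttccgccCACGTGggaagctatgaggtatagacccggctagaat
UTP20: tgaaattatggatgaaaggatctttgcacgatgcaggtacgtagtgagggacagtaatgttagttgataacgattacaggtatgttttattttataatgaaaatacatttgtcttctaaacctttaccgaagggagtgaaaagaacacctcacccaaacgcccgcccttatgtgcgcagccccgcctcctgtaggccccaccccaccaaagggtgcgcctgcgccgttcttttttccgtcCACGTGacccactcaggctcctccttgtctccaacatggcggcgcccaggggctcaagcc
NOP2: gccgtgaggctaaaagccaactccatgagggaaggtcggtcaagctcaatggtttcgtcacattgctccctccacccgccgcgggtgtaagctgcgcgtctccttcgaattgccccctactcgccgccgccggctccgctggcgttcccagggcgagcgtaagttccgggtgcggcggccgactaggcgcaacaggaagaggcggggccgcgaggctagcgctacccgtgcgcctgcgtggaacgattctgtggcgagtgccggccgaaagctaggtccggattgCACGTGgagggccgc
EIF5A2: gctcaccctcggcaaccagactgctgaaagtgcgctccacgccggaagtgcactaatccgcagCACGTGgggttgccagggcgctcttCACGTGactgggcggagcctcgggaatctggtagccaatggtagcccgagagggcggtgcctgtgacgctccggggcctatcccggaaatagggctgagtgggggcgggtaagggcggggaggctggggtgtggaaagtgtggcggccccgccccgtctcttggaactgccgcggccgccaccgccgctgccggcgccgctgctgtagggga
A match is a description of these letters and says nothing about binding in either cell state.

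Other genes of ribosome production, from a list of 134 outside the rule, mostly fell on the quantile-normalized scale: of 128 measured 80 fell (62.5%, against 21.2% of all genes), 8 rose and 40 did not pass, with a median change of -0.46. With scaling on hybridization controls 26 were lower (20.3%, against 10.1% of all genes) and 30 higher (23.4%, against 45.9%). MDN1, an ATPase that releases factors from the large subunit, was at 9.13, 9.11 and 9.05 in the progenitors, against 11.08, 11.18 and 10.74 in hESC, and changed by -1.9 (SE 0.12). TSR1, a small-subunit maturation factor, changed by -1.76, TAF1C, a subunit of the RNA polymerase I selectivity factor, by -1.72, and RRS1, of the large subunit, by -1.35. TSR3, which modifies the small ribosomal RNA, rose by 0.62 (SE 0.12), the largest increase of the list. Of the cytoplasmic ribosomal proteins themselves, few were called on their brightest probe sets. Of 54 measured 53 did not pass, 1 fell and none rose (limma, 1 higher and 2 lower at an unadjusted p under 0.05), with a median change of 0.03. The 1 that fell was RPL36A, on a dim probe set at 4.82, 5.71 and 5.47 in the progenitors and 6.61, 6.35 and 6.38 in hESC. With scaling on hybridization controls 51 of the 54 were higher, where 45.9% of all genes were, and the median was 0.58. The choice of probe set also moved these counts. When the probe sets of a gene were averaged 15 were lower and 2 higher (27.8% and 3.7%, against 20.5% and 25.8% of all genes). With multi-transcript probe sets left out 10 of 30 were lower and 1 higher (33.3% and 3.33%, against 20.3% and 24.7% of all genes). The medians were then -0.01 and 0.01. Like NPM1, most of these transcripts were near the top of the range, with a median level of 12.95 to 12.99 on the progenitor arrays and 12.95 to 12.97 on the hESC arrays.

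**Figure D3:**
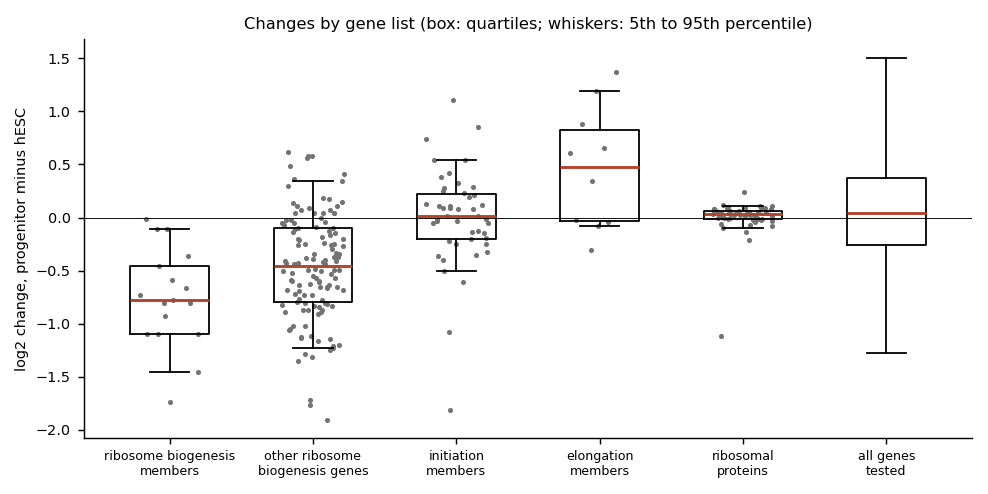
Log2 change, progenitor minus hESC, on the quantile-normalized scale, of the ribosome biogenesis members, other ribosome biogenesis genes, initiation and elongation members, ribosomal proteins and all genes tested. Points are genes (not drawn for all genes), boxes show quartiles with the median in red, and whiskers the 5th to 95th percentile. The medians of the biogenesis lists lie at -0.78 and -0.46 and that of the ribosomal proteins at 0.03; with scaling on hybridization controls these medians are -0.28, 0.03 and 0.58.

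Among the initiation genes, those for scanning and the start codon moved both ways. EIF5, which triggers GTP hydrolysis by eIF2 at the start codon, was at 10.83, 10.55 and 10.5 in the progenitors, against 11.24, 11.2 and 11.28 in hESC, and fell by 0.61 (SE 0.11, limma adjusted p = 0.00244). EIF1AX, which opens the small subunit for scanning, was at 10.94, 10.95 and 10.98 in the progenitors and 11.46, 11.5 and 11.43 in hESC, and fell by 0.5 (SE 0.08). The groups of both genes stood clear of each other, although with scaling on hybridization controls neither passed (-0.18 and -0.05). EIF5B, which joins the large subunit, changed by -0.35 and turned to 0.1 with that scaling, and with multi-transcript probe sets left out it was -0.09 without a call (limma adjusted p = 0.511). Tested singly, 3 of 6 EIF5B probe sets fell and 3 did not pass. Among those that fell was a dimmer probe set not marked as multi-transcript (-0.69). EIF2D, a factor that can deliver initiator tRNA without eIF2 and takes part in ribosome recycling, was at 9.26, 9.52 and 9.52 in the progenitors, against 8.6, 8.37 and 8.78 in hESC. It rose by 0.85 (SE 0.13, limma adjusted p = 0.00131), with no overlap between the groups. EIF2A, another alternative initiator tRNA carrier, was at 10.74, 10.89 and 10.86 in the progenitors and 10.46, 10.35 and 10.51 in hESC, and rose by 0.38, but did not pass when each array was centred on its gene median (0.16). EIF1, the start codon gatekeeper, differed by 0.12 without passing on its brightest probe set, at 12.93, 12.91 and 12.9 in the progenitors and 12.78, 12.8 and 12.8 in hESC. Tested singly, 6 of the 7 EIF1 probe sets rose, by between 0.5 and 0.98, and only the brightest did not pass. EIF1 was called higher when its probe sets were averaged (0.55) and with multi-transcript probe sets left out (0.51, limma adjusted p = 0.00338). Its paralog EIF1B was at 11.62, 11.78 and 11.79 in the progenitors, against 11.8, 11.76 and 11.79 in hESC, an overlapping difference of -0.05. The Y-linked gene EIF1AY is counted among the members and its level is not given.

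Of 10 genes for eIF2 (the carrier of initiator tRNA), its exchange factor eIF2B and the kinases EIF2AK1 and EIF2AK2, 2 rose and 1 fell. These are 20.0% and 10.0%, against 26.7% and 21.2% of all genes, and 7 did not pass. The eIF2B subunit EIF2B3 was at 9.37, 9.45 and 9.44 in the progenitors, against 8.94, 8.72 and 8.99 in hESC, and rose by 0.54 (SE 0.1, limma adjusted p = 0.00299). EIF2B2 was at 9.74, 9.83 and 9.79 in the progenitors and 9.5, 9.4 and 9.47 in hESC, and rose by 0.33 (SE 0.08). The arrays of both subunits were all higher in the progenitors. The call of EIF2B2 was lost when progenitor array 2 was left out (limma adjusted p = 0.0521) and with centring on the gene median (0.14). EIF2B1 differed by 0.29 without passing (adjusted p = 0.0604), and passed without hESC array 3 (0.37). EIF2S2, a subunit of eIF2 itself, was at 11.92, 11.92 and 11.9 in the progenitors, against 11.97, 11.82 and 11.94 in hESC, an overlapping difference of 0.01. EIF2AK2 (PKR), the kinase that phosphorylates eIF2 upon sensing double-stranded RNA, was at 9.21, 9.07 and 9.08 in the progenitors, against 9.52, 9.61 and 9.43 in hESC. It changed by -0.4 (SE 0.09, limma adjusted p = 0.00792) and turned to 0.09 with scaling on hybridization controls. The haem-regulated kinase EIF2AK1 was at 10.26, 10.46 and 10.5 in the progenitors, against 10.21, 10.05 and 10.33 in hESC. Its groups overlapped, and the difference of 0.21 did not pass. A dimmer probe set of EIF2AK1, tested singly, went the other way and was called, at -0.41 (limma adjusted p = 0.0128). Its mean levels were 6.76 in the progenitors and 7.18 in hESC.

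The eIF3 complex, the scaffold that holds the small subunit during initiation, had 11 of 13 measured genes that did not pass on their brightest probe sets, with differences between -0.25 and 0.28, where 47.9% of all genes were called. Other probe sets of some of these genes fell when tested singly, as was seen after their values were known. For EIF3B 3 of 6 fell, a pair of them with changes of -2.515 and -2.626, at mean levels of 7.05 and 7.36 in the progenitors, against 9.56 and 9.98 in hESC. For EIF3M 3 of 5 fell, with changes of -0.926, -1.17 and -1.945, and for EIF3A 2 of 3 fell, with changes of -0.281 and -0.474. No probe set of these 3 genes rose, and when the probe sets of a gene were averaged EIF3B (-0.93), EIF3M (-0.87) and EIF3A (-0.32) were called lower. EIF3A was also called without hESC array 3 (-0.27, limma adjusted p = 0.0498). EIF3F was at 12.42, 12.48 and 12.45 in the progenitors, against 12.06, 11.88 and 12.15 in hESC, and rose by 0.42 (SE 0.1, limma adjusted p = 0.00861). With the probe sets marked as able to match several transcripts left out, a dimmer probe set of EIF3F stood for the gene and fell by 0.53. The same choice turned EIF3K from 0.28 without a call to -0.79 with one. EIF3C was at 4.92, 4.88 and 5.04 in the progenitors and at 6.37, 7.27 and 6.63 in hESC, a change of -1.81 (SE 0.22). This is a dim probe set and the only one annotated to EIF3C alone, since the others are shared with the near-identical EIF3CL. EIF3E was at 12.59, 12.63 and 12.63 in the progenitors, against 12.76, 12.76 and 12.71 in hESC, and its difference of -0.13 did not pass although the groups did not overlap, and with centring on the gene median it was called lower (-0.25). EIF3H (0.23, adjusted p = 0.0546), EIF3K (adjusted p = 0.0516) and EIF3G (-0.25, adjusted p = 0.0563) lay next to the threshold. EIF3H and EIF3K passed without progenitor array 1 (0.27 and 0.35), and EIF3G without hESC array 2 (-0.29).

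Among the genes around the cap-binding complex, the cap-binding paralogs went separate ways. EIF4E, the canonical cap-binding protein, was at 10.3, 10.4 and 10.4 in the progenitors, against 10.24, 10.43 and 10.42 in hESC, a difference of 0.01 (SE 0.09). EIF4E2 (4EHP), a cap-binding protein that represses translation, was at 10.35, 10.37 and 10.38 in the progenitors and 9.85, 9.6 and 10.04 in hESC, and rose by 0.54 (SE 0.12, limma adjusted p = 0.00795). With multi-transcript probe sets left out it was 0.32 and not called (limma adjusted p = 0.1), and 3 of its 4 probe sets did not pass singly. EIF4E3, a cap-binding protein with an atypical binding pocket, was at 6.45, 6.64 and 6.48 in the progenitors and 7.65, 7.36 and 7.8 in hESC. EIF4E3 fell by 1.08 (SE 0.13, limma adjusted p = 0.000353), and a second probe set fell by 1.63. EIF4ENIF1 (4E-T), which carries EIF4E into the nucleus and to sites of mRNA repression, was at 8.93, 8.99 and 8.9 in the progenitors, against 8.15, 8.13 and 8.35 in hESC. It rose by 0.74 (SE 0.09, limma adjusted p = 0.00044), and for these 3 genes the arrays of the groups did not overlap. EIF4EBP1, an inhibitor that mTOR signalling releases from EIF4E, was at 10.45, 10.14 and 10.13 in the progenitors, against 10.53, 10.27 and 10.59 in hESC, a difference of -0.22. Its paralog EIF4EBP2 was at 10.95, 10.81 and 10.87 in the progenitors, against 10.89, 10.9 and 10.93 in hESC, a difference of -0.03, and in neither paralog were the groups apart. With centring on the gene median both were called lower (-0.44 and -0.26).

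Smaller shifts were called for EIF4H, a cofactor of the helicase (0.25), for EIF4A3, the helicase of the exon junction complex (-0.32), and for the scaffold EIF4G1 (-0.25), both negative values turning with scaling on hybridization controls (0.14 and 0.2). EIF4A3 was at 11.13, 11.17 and 11.17 in the progenitors, against 11.52, 11.33 and 11.58 in hESC, and EIF4G1 at 10.9, 10.79 and 10.85 in the progenitors, against 11.11, 11.09 and 11.08 in hESC. The groups did not overlap, yet these calls were lost when single arrays were left out. EIF4A3 did not pass without progenitor array 1, 2 or 3 or hESC array 1 or 3 (adjusted p = 0.0568 to 0.0794). EIF4G1 did not pass without progenitor array 2 or 3 or hESC array 1 (adjusted p = 0.0785 to 0.125). EIF4H did not pass without progenitor array 2 or 3 or hESC array 1 or 2 (adjusted p = 0.051 to 0.106). EIF4G2, a scaffold that acts without cap binding, differed by -0.01, at 12.67, 12.62 and 12.62 in the progenitors and 12.62, 12.77 and 12.55 in hESC. The only probe set annotated to EIF4A2 alone was near the floor, at mean levels of 4.39 in the progenitors and 4.43 in hESC.

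EIF5A, the hypusine-containing factor that helps ribosomes through difficult sequences, and its paralog EIF5A2 differed in their change. EIF5A was at 12.41, 12.58 and 12.58 in the progenitors, against 12.66, 12.63 and 12.7 in hESC, a difference of -0.14 (SE 0.09) that did not pass. EIF5A2 was at 7.1, 7.17 and 7.18 in the progenitors and 6, 5.81 and 6.3 in hESC, and rose by 1.11 (SE 0.13, limma adjusted p = 0.000312), a level 2.17 times that of hESC. EIF6, which keeps the large subunit from joining too early, was at 10.5, 10.42 and 10.46 in the progenitors and 10.93, 10.64 and 10.89 in hESC, a change of -0.36. EIF6 did not pass without progenitor array 2 or 3 or hESC array 1 or 3 (adjusted p = 0.0578 to 0.076), and turned to 0.09 with scaling on hybridization controls.

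**Figure D4:**
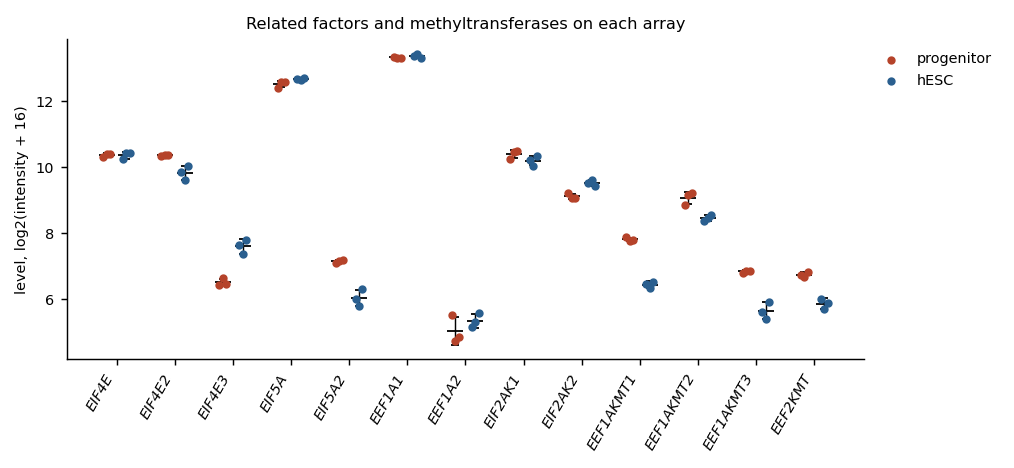
Level on each array, log2(intensity + 16), of cap-binding, eIF5A, eEF1A and eIF2 kinase paralogs and of the elongation factor methyltransferases. Points are arrays (3 progenitor, left, and 3 hESC, right, in each pair), black bars are the mean and SD. The methyltransferases, EIF4E2 and EIF5A2 stand higher in the progenitors and EIF4E3 lower, while EIF4E and EEF1A1 overlap; EIF2AK2 is lower on this scale and turns to 0.09 with scaling on hybridization controls.

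The elongation factors EEF1A1 and EEF2 did not pass on their brightest probe sets, whereas the member genes for enzymes that methylate them rose. EEF1A1, which brings aminoacyl-tRNA to the ribosome, was at 13.35, 13.32 and 13.32 in the progenitors, against 13.36, 13.43 and 13.32 in hESC, a difference of -0.04. EEF2, the translocase, was at 13.02, 12.98 and 12.98 in the progenitors and 13.03, 13.15 and 13.03 in hESC, a difference of -0.08. Neither passed, both were near the top of the range, and with scaling on hybridization controls their differences were 0.5 and 0.48. With multi-transcript probe sets left out EEF1A1 was called lower, at -0.66 (limma adjusted p = 0.0142). The EEF2 arrays did not overlap between the groups and those of EEF1A1 did. EEF2K, the kinase that inhibits EEF2, differed by -0.02.

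EEF1AKMT1, a lysine methyltransferase of eEF1A, had the largest increase of all members, at 7.88, 7.78 and 7.8 in the progenitors, against 6.47, 6.33 and 6.54 in hESC. It rose by 1.37 (SE 0.09, limma adjusted p = 1.74e-05), a level 2.59 times that of hESC. EEF1AKMT3, another methyltransferase of eEF1A, was at 6.81, 6.87 and 6.86 in the progenitors and 5.63, 5.41 and 5.92 in hESC, and rose by 1.19 (SE 0.13). EEF2KMT, which methylates EEF2, was at 6.75, 6.67 and 6.83 in the progenitors and 6.02, 5.7 and 5.89 in hESC, and rose by 0.88 (SE 0.11). EEF1AKMT2 was at 8.86, 9.15 and 9.21 in the progenitors, against 8.37, 8.47 and 8.55 in hESC, and rose by 0.61 (SE 0.12), but was not called when its probe sets were averaged (0.23). All 4 methyltransferases measured thus had progenitor arrays above every hESC array. EEFSEC, the elongation factor for selenocysteine, also rose, by 0.66 (SE 0.11), at 7.57, 7.39 and 7.44 in the progenitors and 6.73, 6.68 and 7.01 in hESC.

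EEF1D and EEF1A2 depended on progenitor array 1. EEF1D, an exchange factor subunit for eEF1A, was at 13.23 on that array, against 12.07 and 12.06 on the other progenitor arrays, and at 12.07, 12.11 and 12.17 in hESC. Its difference of 0.34 did not pass and was -0.05 without that array. EEF1A2, the form of eEF1A known from muscle and neurons, was at 5.52, 4.75 and 4.87 in the progenitors and 5.16, 5.33 and 5.58 in hESC, a difference of -0.31 that did not pass. Without progenitor array 1 it was -0.55 and passed (limma adjusted p = 0.0212). The ribosome biogenesis genes differed by at most 0.22 between that array and the mean of the other progenitor arrays.

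**Figure D5:**
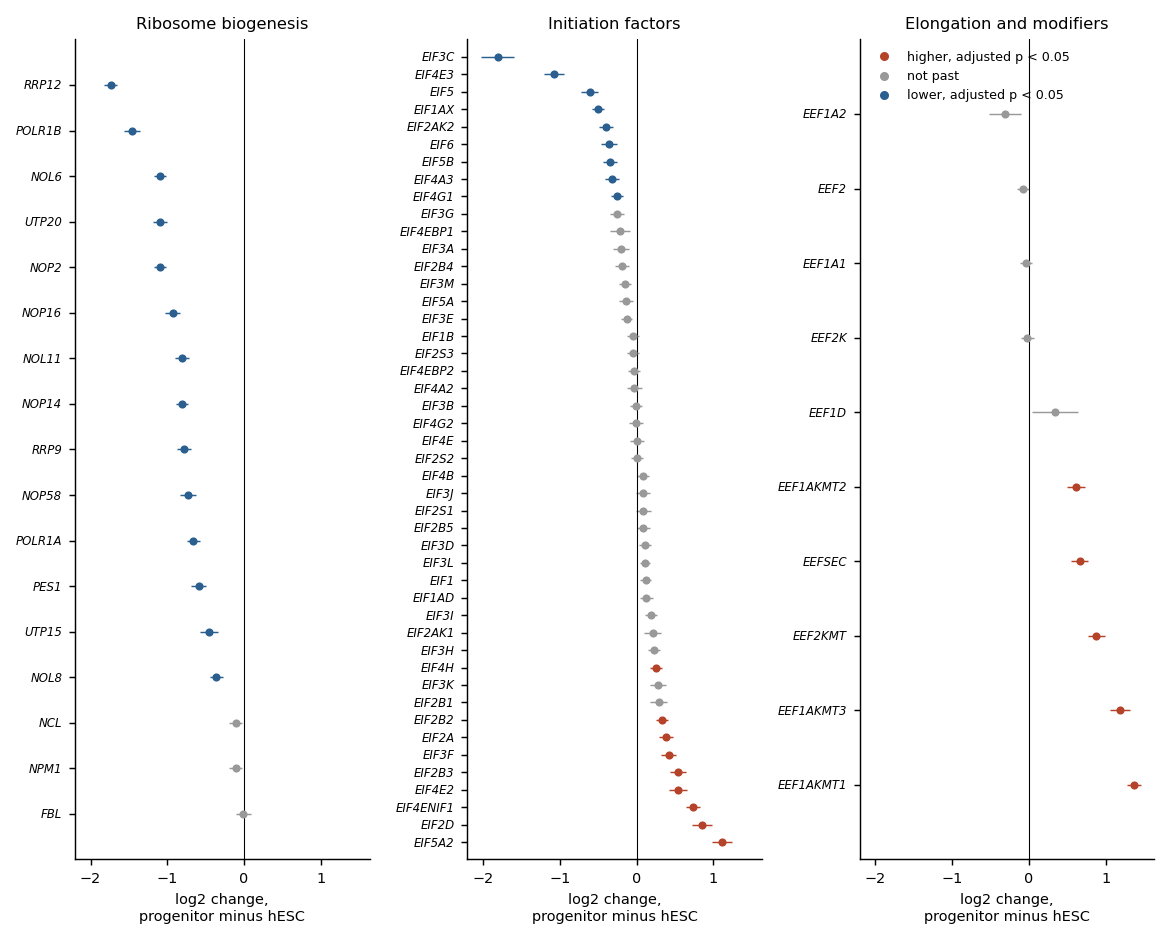
Log2 change, progenitor minus hESC, with its standard error (horizontal axis, quantile-normalized scale), of the members by class, without the noncoding RNAs and EIF1AY. Red genes were higher and blue genes lower at a limma adjusted p under 0.05, and grey genes did not pass. Of 17 biogenesis genes 14 are blue and none red, and of 10 elongation genes 5 are red and none blue; with scaling on hybridization controls 6 biogenesis genes are lower and 3 higher.

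Of the 4 noncoding RNAs, 2 rose and none fell, also at an unadjusted p under 0.05 in limma. Of all genes 26.7% rose and 21.2% fell after adjustment, and 4 genes are too few to set against these shares. EIF1B-AS1 was at 5.8, 5.82 and 6.14 in the progenitors, against 5.24, 5.49 and 5.28 in hESC, and rose by 0.58 (SE 0.13), but was not called with centring on the gene median (0.33). EIF3J-DT, transcribed away from EIF3J, was at 7.53, 7.97 and 7.93 in the progenitors and 7.26, 7.31 and 7.38 in hESC, and rose by 0.49 (SE 0.13). EIF3J-DT did not pass without progenitor array 2 or 3 or hESC array 1 (adjusted p = 0.0594 to 0.0646). EIF2AK3-DT differed by 0.3 without passing and passed without hESC array 3 (0.46, adjusted p = 0.0221).

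Genes that end translation, recycle ribosomes or bind the poly(A) tail were called about as often as all genes, with 4 of 15 higher (26.7%, the same share as in all genes) and 3 lower (20.0%, against 21.2%). PAIP1, which links poly(A)-binding protein to initiation factors, was at 10.94, 11.04 and 11.09 in the progenitors, against 10.02, 10.17 and 10.15 in hESC, and rose by 0.91. MCTS1 and DENR, partners in recycling and reinitiation, changed in opposite directions on the quantile-normalized scale, MCTS1 by 0.9 and DENR by -0.36. HBS1L, a ribosome rescue factor, rose by 0.41. Of 24 genes that control translation through mTOR, MYC or stress, 6 rose and 6 fell (25.0% each, against 26.7% and 21.2% of all genes). MYCN, a transcription factor of the MYC family, was at 9.72, 10.05 and 10.01 in the progenitors, against 11.38, 11.35 and 11.39 in hESC, and changed by -1.45 (SE 0.11, limma adjusted p = 3.1e-05). MYC was at 10.64, 10.25 and 10.28 in the progenitors and 10.15, 10.16 and 10.49 in hESC, a difference of 0.12 that did not pass. PPP1R15A, which recruits a phosphatase to eIF2, rose by 0.81, the stress factor ATF3 rose by 0.57, and DEPTOR, an inhibitor of mTOR, changed by -0.59. MTOR itself differed by 0.06. Of 16 proliferation genes 6 rose (37.5%, against 26.7% of all genes), among them CDK1 (0.9), and 7 fell (43.8%, against 21.2%). Those that fell were the replication genes PCNA and MCM2 to MCM7, led by MCM5 (-0.99), and their part in the changes of the biogenesis genes was not tested.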

How the data were processed

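The authors deposited 1 linear intensity per probe set and array. How these were summarised, background-corrected and scaled is not given in the sources used here. In all, 2.15% of them equalled 1, and 19 lay below. Per the labels, RNA was isolated with a micro column kit and amplified to biotinylated cRNA. Probe sets were named from the platform annotation, with symbols updated by gene identifier. Those annotated to several genes (1801), those with no gene listed (11777) and 62 array controls were not used for genes. A gene was represented by its brightest probe set over the 6 arrays.

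Values were converted to log2(intensity + 16). Array medians spanned 0.1495, over a limit of 0.1, and the arrays were quantile-normalized. The fit was lmFit and eBayes of limma 3.58.1 (R 4.3.3) with 2 groups and no covariate, and Benjamini-Hochberg adjustment over 19775 genes. It was tested on simulated data. Scanner depth and detection calls were not used here, and 3 arrays per group limit the precision.

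Members and gene lists were chosen with earlier results of these data known. Values on every array are given in each role list for the 4 largest changes past the threshold, the largest in the opposite direction, the brightest member that did not pass and paralog sets; any member could be named, and further values were added after they were seen. The alternatives covered scaling, pseudocount, filters, probe set choice, variance models, a replicate block, a stricter threshold and leaving out arrays. Figures were drawn with matplotlib 3.10.9.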

Additional observations from a re-analysis of the deposited data

How the results depend on the processing

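The counts of members called depended on the scaling of the arrays. Against 16 higher and 23 lower, 36 were lower when each array was centred on its gene median, with a median change of -0.2 in place of -0.03. With scaling on hybridization controls 46 were higher and 8 lower, with a median of 0.44. Of all genes 32.5% were lower with centring, and 45.9% higher and 10.1% lower with scaling on hybridization controls. With probe sets marked as able to match several transcripts left out, 10 were higher and 22 lower, where 24.7% and 20.3% of all genes were. Fewer members have a value there, 13 of the 17 biogenesis genes and 44 of the 57 initiation and elongation genes. Over all genes the share of calls that were higher was 55.8%, 37.3% with gene median centring and 81.9% with scaling on hybridization controls. Leaving out each array gave 13 to 18 higher, 18 to 24 lower and medians of -0.04 to -0.02. Arrays of different groups share replicate numbers, but their deviations did not go together (correlations of -0.0218, 0.0271 and -0.0378); with the replicate number as a block 15 members were higher and 21 lower. Of the 14 biogenesis genes that fell, 8 kept their call in each alternative run for them other than scaling on hybridization controls; NOL11 and NOP14 among them have no value with multi-transcript probe sets left out. Over 66 named members and 21 alternatives, 1168 of 1361 values kept direction and call, 64 lost the call, 70 gained one and 59 changed sign, of which 1, EIF3F, was called both ways. The values that changed sign follow, and the cause was not tested. Without normalization, EIF2S2 (-0.05), EIF4E (-0.07) and EIF4G2 (0.01). With centring on the gene median, EIF2AK1 (-0.001), EIF2S2 (-0.2) and EIF4E (-0.21). With scaling on hybridization controls, EEF1A1 (0.5), EEF2 (0.48), EEF2K (0.5), EIF1B (0.4), EIF2AK2 (0.09), EIF3A (0.26), EIF3B (0.44), EIF3E (0.42), EIF3G (0.2), EIF3M (0.33), EIF4A2 (0.07), EIF4A3 (0.14), EIF4EBP1 (0.23), EIF4EBP2 (0.41), EIF4G1 (0.2), EIF4G2 (0.54), EIF5A (0.4), EIF5B (0.1), EIF6 (0.09), FBL (0.48), NCL (0.42), NOL8 (0.11), NPM1 (0.45) and UTP15 (0.07). On the mean of a gene's probe sets, EIF1B (0.17), EIF2AK1 (-0.1), EIF3F (-0.03) and EIF4EBP2 (0.07). With the multi-transcript probe sets left out, EIF3F (-0.53) and EIF3K (-0.79). With array weights, EIF2S2 (-0.05), EIF3B (0.01), EIF4A2 (0.04) and EIF4G2 (0.002). With progenitor arrays 2 and 3 averaged to 1 array, EIF4E (-0.01) and EIF4G2 (0.00069). When each array was left out in turn, sign changes occurred for EEF1D (-0.05 to 0.53), EEF2K (-0.09 to 0.03), EIF1B (-0.08 to 0.0028), EIF2S2 (-0.04 to 0.04), EIF3B (-0.04 to 0.03), EIF4A2 (-0.11 to 0.04), EIF4E (-0.05 to 0.04), EIF4EBP2 (-0.07 to 0.01), EIF4G2 (-0.06 to 0.06) and FBL (-0.07 to 0.04).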

Other observations

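The array also carries control probe sets for ribosomal RNA itself, which the labelling of messenger RNA is not meant to measure. The 28S control for the 5' part had deposited intensities of 2848, 2024 and 1841 in the progenitors, against 4369, 6274 and 4048 in hESC. The 28S control for the middle part had 3454, 2249 and 2105 in the progenitors, against 4948, 6497 and 4615 in hESC. The groups did not overlap in either, with p = 0.1 in a two-sided exact permutation test, the smallest that 3 arrays against 3 allow. The 28S control for the 3' part was dim and ran the other way, at 48.04, 45.46 and 56.92 in the progenitors and 32.93, 39.05 and 36.56 in hESC. The 18S control for the 3' part was lower, without overlap, at 379.2, 360.1 and 307.8 in the progenitors, against 459, 1260 and 704.4 in hESC (two-sided exact permutation p = 0.1). The 18S controls for the 5' and middle parts overlapped between the groups.

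Of the E-box promoters among the other ribosome biogenesis genes, 17 of 33 (51.5%) also had the E-box beginning between positions -10 and 36, a range taken from the members.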
